A study of Zea mays subsp. mays with 8 samples.

Results

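The regions described here are maize transcription start regions that were narrow wherever they were measured, in root and shoot and under both line names of the deposited sets. Start-site clusters of the 4 deposited sets were merged into loci where they overlapped on the same strand, which joined 75681 clusters into 27756 loci. Of these, 9804 loci held exactly 1 cluster of each set. The width of a cluster is the stretch that holds its signal from the 10th to the 90th percentile. Clusters of at most 10 bp by this measure count as sharp, and 2625 loci were sharp in all 4 sets. A further rule left out 48 loci whose strongest site differed between tissues alike under both line names, and 87 whose site differed between line names alike in both tissues. The 2490 loci that remained, 25.4% of the 9804, are the sharp loci below. The loci were thus chosen by widths and strongest sites, which are given below as a description only.

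An RNA polymerase II promoter can start transcription on 1 or a few adjacent bases, or over a broad stretch. In plants and animals, focused initiation is commonly linked with a TATA box, which places the polymerase at a fixed distance downstream, and with genes whose expression is restricted to a tissue or condition. Dispersed initiation is more often linked with broadly expressed genes. Cap analysis of gene expression (CAGE) captures the capped 5′ end of a transcript and sequences a short tag from it, so each tag marks a start site to the base.

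Per the labels, the tissue was shoot and root of 14-day-old wild type, untreated maize seedlings (Zea mays subsp. mays) of the inbred lines B73 and A632. Each of the 4 groups had 2 libraries, and each library pooled 5 seedlings. The files hold a single value for each cluster in a set and none for each library. No difference below therefore has a replicate check or a test. The sets are named B73_R, B73_S, Mo17_R and Mo17_S. The first 2 were taken as B73 root and B73 shoot. Mo17 is another inbred line and is in none of the labels, so the other 2 sets are described under their own names and were matched to no sample, with R and S read as root and shoot as in B73.

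Signal is the normalized value deposited by the authors. Inverting its power law gave whole tag numbers at the strongest (dominant) sites, whose totals were 1267305 tags in B73_R, 2394924 in B73_S, 2797561 in Mo17_R and 3409185 in Mo17_S. The exponents were 1.09, 0.888, 1.01 and 0.877, which spreads strong from weak sites more in the R sets. B73_R stood apart from the other sets in its dominant sites and had the fewest tags, and dominant-site sharing is also given without it. The counts of B73 root against shoot, those under both line names and those between the R sets use B73_R values. The comparison of Mo17_R with Mo17_S does not. All of these loci were still chosen with B73_R, also where sharing is given without it. Rebuilt from the other 3 sets alone, with no loci left out for moved sites, 3312 loci were sharp in all 3. No source used here names the genome build, and the clusters carry no gene names. Loci are therefore named by the files' coordinates, with no gene, exon or sequence.

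The 10 strongest sharp loci, ranked by mean log2(signal + 1) over the sets, lay on chromosomes 1, 2, 6, 7, 8 and 10. The strongest lay on the minus strand of chromosome 2, at 18759473 to 18759642. Its signal was 52751 in B73_R, 4743 in B73_S, 18470.4 in Mo17_R and 7341 in Mo17_S, so both R sets were above both S sets. On dominant-site tags relative to the totals of the sets, B73_R was 4.90 times B73_S here and Mo17_R was 1.14 times Mo17_S. All 4 sets had their dominant site at 18759495, which took 97.7%, 86.2%, 91.3% and 93.6% of the signal in that order. The next lay on the plus strand of chromosome 10, at 34240657 to 34240714, with signals of 17090, 626.6, 4945 and 1255 in the same order of sets. Its shared dominant site, 34240659, took from 67.6% of the signal in Mo17_R to 83.2% in B73_R. Both of these loci lay in dense runs of clusters, which are described further on.

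Some other strong loci differed less between the sets on signal. On the plus strand of chromosome 6, at 163078675 to 163078822, the signal was 2621 in B73_R, 1717 in B73_S, 2322 in Mo17_R and 2152 in Mo17_S, with the shared site at 163078743. This locus had a width of 1 bp in every set. On the minus strand of chromosome 7, at 11447621 to 11447699, it was 1331, 1869, 1369 and 1292, and the highest value was that of B73 shoot. On the plus strand of chromosome 6, at 4596879 to 4597063, it was 1642 (B73_R), 894.9 (B73_S), 1362 (Mo17_R) and 1014 (Mo17_S). The width there was again 1 bp throughout. On dominant-site tags relative to the totals, B73_R was 0.926, 0.449 and 1.20 times B73_S at these loci, in the order named. Mo17_R was 0.614, 0.712 and 0.850 times Mo17_S. Among the 10 loci, B73_R exceeded B73_S in 7 and Mo17_R exceeded Mo17_S in 8 on signal. Scaled to 1000000 tags a set, recovered tags gave 5 and 4, so the majority for Mo17_R turned with the scale. The dominant site was shared by all 4 sets at 7 of them, and at the other 3 B73_R alone lay 1 bp away.

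**Figure D1:**
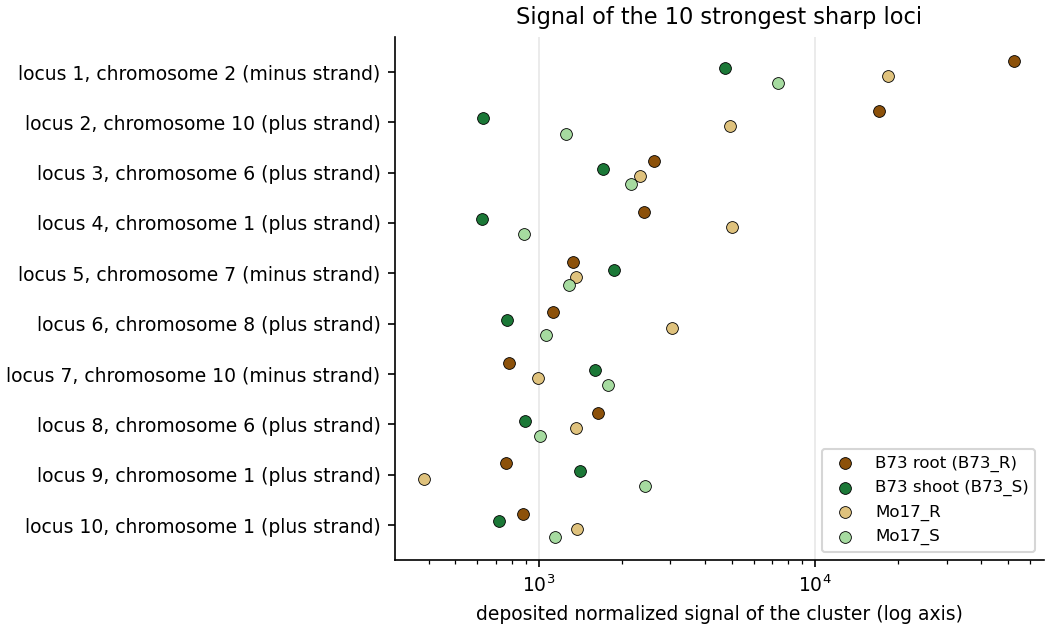
Deposited normalized signal (log axis) of the 10 strongest sharp loci, 1 row per locus in rank order and 1 point per set. At the first 2 loci both R sets lie above both S sets on this scale, while the points of the third lie between 1717 and 2621.

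Most sharp loci were far weaker than these. In B73_R the signal ran from 0.267 to 52751 with a median of 9.49, and in B73_S from 0.531 to 4743 with a median of 11.5. In Mo17_R it ran from 0.276 to 18470.4 with a median of 16.3, and in Mo17_S from 0.486 to 7341 with a median of 14.0. Over all 9804 loci the medians were 6.95, 11.1, 12.5 and 13.9. On signal the sharp loci thus had higher medians than all loci in the R sets, and medians close to them in the S sets. On dominant-site tags per 1000000 the sharp medians were higher in all 4 sets, at 27.6, 18.8, 29.0 and 19.4 against 16.6, 12.5, 15.9 and 12.6 in B73_R, B73_S, Mo17_R and Mo17_S. Those tags are of the dominant site alone, which takes more of a narrow cluster by the choice of the loci.

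Sharp loci took a larger part of the signal in the R sets than in the S sets. They held 41.0% of all B73_R signal and 31.1% of Mo17_R signal, against 22.1% in B73_S and 22.6% in Mo17_S. As a share of clusters they were 17.1%, 13.6%, 12.5% and 10.9% of B73_R, Mo17_R, B73_S and Mo17_S. Leaving the strongest locus out of both the part and the total gave 33.9% in B73_R and 29.0% in Mo17_R, with 21.4% and 21.7% in B73_S and Mo17_S. On recovered dominant-site tags, which carry no power law, the shares were 45.8%, 36.2%, 28.0% and 30.3% in B73_R, Mo17_R, B73_S and Mo17_S. The 4116 loci that were broad (over 10 bp) in all 4 sets held 11.9% of B73_R, 15.9% of Mo17_R, 19.2% of B73_S and 20.6% of Mo17_S signal. On dominant-site tags the broad loci held 10.9%, 10.8%, 11% and 11.2% in the same order. Their difference between R and S sets was thus seen on signal and not on tags. No test of these differences is possible with 1 value per set.

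**Figure D2:**
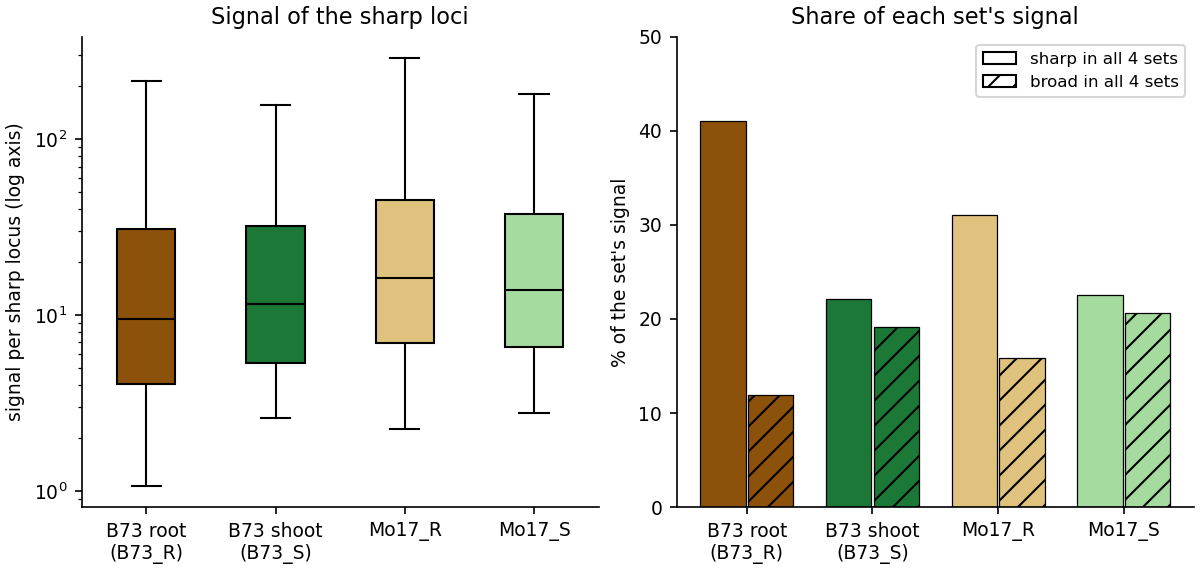
Left, signal per sharp locus in each set (log axis, box from the 25th to the 75th percentile, line at the median, whiskers from the 5th to the 95th percentile). Right, percent of each set's signal held by loci sharp (plain) or broad (hatched) in all 4 sets. Sharp loci hold 41.0% in B73_R and 22.1% in B73_S, broad loci 11.9% and 19.2%. On dominant-site tags, not drawn, these are 45.8% and 28% for sharp loci and 10.9% and 11% for broad loci.

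The study's design names root against shoot within each line. At sharp loci, a fixed size of 4-fold on log2(signal + 1), with the higher signal at least 1, stood in for a test. By this rule 214 sharp loci were higher in B73 root, or 8.59% (95% Wilson interval 7.56 to 9.76), against 3.90% of all 9804 loci. A further 305 were higher in B73 shoot, or 12.2% (interval up to 13.6), against 14.6% of all loci. Under the Mo17 name 259 were higher in the R set (10.4%, all loci 5.11%) and 206 in the S set (8.27%, all loci 9.32%). These Wilson intervals take loci as independent and cover counting error only. In B73, which direction had more loci depended on the scale, while under the Mo17 name the R set led on each scale used here. On recovered tags per 1000000 of the set, 424 sharp loci were higher in B73 root (17.0%) and 202 in B73 shoot (8.11%), against 11.5% and 7.89% of all loci. There 365 were higher in Mo17_R (14.7%) and 185 in Mo17_S (7.43%), against 9.06% and 7.68% of all loci. Among loci where both B73 sets reached a signal of 5, 131 of 1437 sharp loci (9.12%) were past 4-fold in favour of root and 85 (5.92%) in favour of shoot, against 4.01% and 4.90% of 5164 loci of all kinds. Under the Mo17 name the same minimum gave 169 of 1820 sharp loci (9.29%) with R higher and 82 (4.51%) with S higher. Of 6999 loci of all kinds the shares were 4.17% and 3.99%.

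At sharp loci, root minus shoot had a median log2 difference of -0.16 in B73 and 0.34 under the Mo17 name. Over all 9804 loci it was -0.47 and 0.02. On recovered tags these medians were 0.55 and 0.63 at sharp loci and 0.48 and 0.43 over all loci, so the scale moves the zero line of both comparisons. Relative to the median of all loci, 334 sharp loci were higher in B73 root and 209 in shoot on signal, beside 6.62% and 9.87% of all loci. On tags these were 284 and 293, beside 6.71% and 11.3%. Under the Mo17 name the counts were 253 and 208 on signal, beside 5% and 9.41%, and 260 and 237 on tags, beside 5.80% and 10.1%.

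The 2 tissue comparisons share no set, and 120 sharp loci were higher in the R set under both line names. That is 4.82% of sharp loci (95% Wilson interval 4.05 to 5.73) against 2.12% of all 9804 loci and 0.656% of the loci broad in all sets. They were 56.1% of the B73 list and 46.3% of the Mo17 list. Higher in the S set under both names were 150, or 6.02% (5.16 to 7.03), against 7.43% of all loci and 8.77% of broad loci. These made up 49.2% of the B73 list and 72.8% of the Mo17 list. On recovered tags, the counts were 185 with R higher (7.43%, all loci 4.05%, broad loci 1.87%) and 115 with S higher (4.62%, all loci 4.90%, broad loci 5.37%). Centred on the median of all loci, R higher made up 6.10% of sharp and 2.76% of all loci on signal, and 5.06% and 2.46% on tags. S higher made up 5.26% of sharp and 6.43% of all loci on centred signal, and 5.86% and 6.25% on centred tags. On each of these 4 scales the R-higher share of sharp loci was above that of all loci, with no test of the difference. The S-higher share was below that of all loci on each of these 4. Within each line name, where both sets reached a signal of 5, it was above that of all loci. On tags and on centred tags the S-higher share of all loci lay inside the sharp interval (3.86 to 5.52 and 5.01 to 6.86). The broad loci that enter this contrast were weaker in B73_R, with a median of 16 dominant-site tags against 35 at sharp loci, and the part of depth in it was not tested. The direction was opposite under the 2 names, past 4-fold in each, at 9 sharp loci (0.361%, all loci 0.153%) on signal and at 3 (0.12%, all loci 0.0918%) after quantile normalization. On tags it was opposite at 11 (0.442%, all loci 0.296%).

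**Figure D3:**
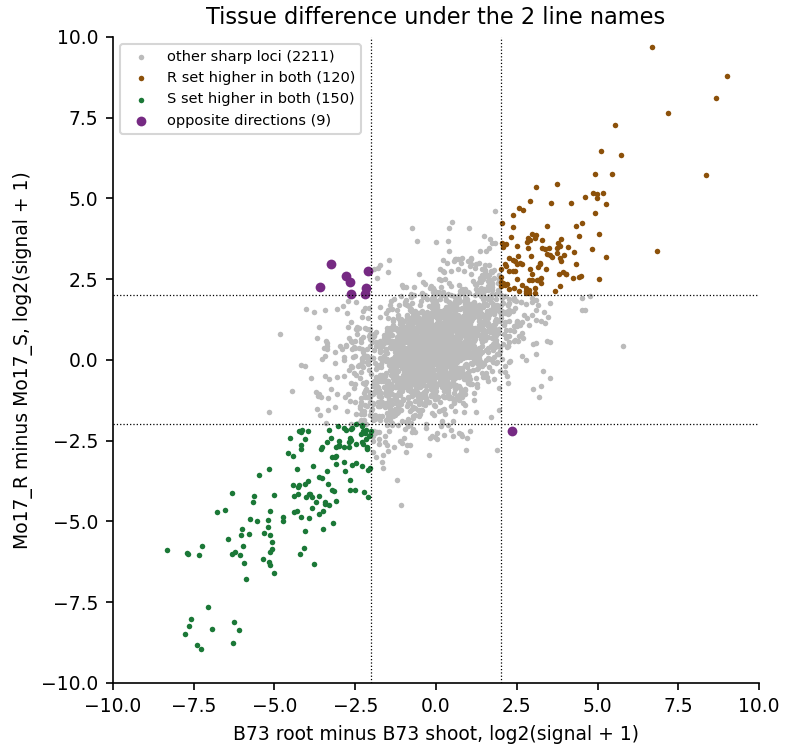
Difference of the R set minus the S set in log2(signal + 1) for each of the 2490 sharp loci, B73 on the horizontal and the Mo17-named sets on the vertical axis, with dotted lines at 4-fold. Coloured points are past 4-fold in both, with 120 R-higher loci, 150 S-higher loci and 9 loci of opposite direction.

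The largest root excess in B73 lay on the plus strand of chromosome 4, at 240779566 to 240779731. The signal there was 1244 in B73_R and 1.40 in B73_S, a log2 difference of 9.02, and 744.9 in Mo17_R and 0.689 in Mo17_S, a difference of 8.79. Behind these values stood 1720, 4, 3389 and 2 tags at the dominant sites of B73_R, B73_S, Mo17_R and Mo17_S, which is 812.6 times as many in B73 root relative to the totals of the sets (95% exact binomial interval 316.8 to 2986). The 4 dominant sites lay within 8 bp, so the tags are not all of 1 base. The locus on the plus strand of chromosome 3, at 130544757 to 130544852, came next, with 970.5 in B73_R, 1.40 in B73_S, 1487 in Mo17_R and 4.45 in Mo17_S. On the minus strand of chromosome 3, at 97032297 to 97032481, the signals were 563.9, 2.86, 422.1 and 1.12 in the same order. These 3 loci also had the largest R excess under both line names.

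Root excess was less even between the line names at the other 2 of the 5 leading loci. On the minus strand of chromosome 1, at 203693270 to 203693331, the signal was 501.8 in B73_R, 0.531 in B73_S (1 tag), 166.1 in Mo17_R and 2.17 in Mo17_S, with log2 differences of 8.36 and 5.72. On the minus strand of chromosome 6, at 3288567 to 3288645, it was 202.7, 0.757, 37.2 and 2.69, with differences of 6.86 and 3.38. Loci picked for extreme values overstate their difference, and the intervals leave this out. Copies made by PCR also count as tags, since the protocol in the labels gives no molecular identifiers.

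The largest shoot excess in B73 lay on the minus strand of chromosome 10, at 144524958 to 144525136, with 4.44 in B73_R, 1735 in B73_S, 29.2 in Mo17_R and 1779 in Mo17_S. By dominant-site tags it was 687.6 times as high in B73 shoot relative to the totals (exact interval from 373.8 to 1434). These were 10 B73_R tags at 144525131, with 36.9% of the signal, and 12995 B73_S tags at 144525132, with 69.0%. The tags are thus not of the same base. The next locus lay on the minus strand of chromosome 1, at 203213800 to 203213939. Its signal was 1.19 in B73_R, 475.1 in B73_S, 1.96 in Mo17_R and 1061 in Mo17_S. All 4 sets had their dominant site at 203213901 there, and it had 5, 2675, 12 and 10147 tags. The minus strand of chromosome 5, at 142750286 to 142750441, gave 8.04 and 1808 in B73 root and shoot and 7.05 and 2456 in Mo17_R and Mo17_S. Shoot exceeded root by the fixed size under both names at each of these 3. On the plus strand of chromosome 4, at 11159351 to 11159384, the difference was -7.58 in B73 and -8.02 under the Mo17 name, and this locus lay in a dense run.

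The other 2 of the 5 leading shoot loci, both on the minus strand of chromosome 1 and in dense runs, had nearly the same values. At 56024584 to 56024592 the signal was 1.66 in B73_R, 555.6 in B73_S, 4.11 in Mo17_R and 320.9 in Mo17_S. At 15180919 to 15180927 it was 1.71, 550.7, 3.81 and 307.8. No source used here says how the authors placed tags that match several positions, so the values of these loci are uncertain if their sequences are copies.

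The design also names the comparison between lines within a tissue, which here can only be described between set names. In the R sets 53 sharp loci were past 4-fold with B73 higher and 246 with Mo17 higher, or 2.13% and 9.88%, beside 1.81% and 10.1% of all loci. In the S sets the counts were 38 and 48, or 1.53% and 1.93%, beside 1.70% and 1.86%. Each of these 4 shares was close to that of all loci. The direction of the split in the S sets turned with the scale. On tags 77 sharp loci were higher in B73_S and 61 in Mo17_S (3.09% and 2.45%), beside 3.44% and 2.35% of all loci, and quantile normalization gave 59 and 34 (2.37% and 1.37%), beside 2.71% and 1.42%. The split in the R sets came with a median log2 difference of B73_R minus Mo17_R of -0.62 at sharp loci and -0.73 over all loci. On recovered tags that median was 0.02 and 0.06, and the counts were 139 with B73 higher and 130 with Mo17 higher, beside 5.20% and 4.47% of all loci.

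A difference between line names in both tissues was rare. It was found with B73 higher at 20 sharp loci (0.803%, all loci 0.816%) and with Mo17 higher at 19 (0.763%, all loci 0.694%). The even split held on signal, while tags gave 34 and 16 (1.37% and 0.643%, all loci 1.58% and 0.622%) and quantile normalization 23 and 9 (0.924% and 0.361%, all loci 1.25% and 0.377%). At 2 loci (0.0803%, all loci 0.0306%) the difference was opposite between the R and S sets on signal, and at 5 (0.201%, all loci 0.214%) on tags. The largest on the B73 side lay on the minus strand of chromosome 10, at 146789924 to 146789931. Its signal was 1231 in B73_R and 255.4 in B73_S, with widths of 1 bp, against 11.1 in Mo17_R and 3.16 in Mo17_S, with widths of 6 bp. The next lay on the plus strand of chromosome 6, at 128648278 to 128648302, with 1251 and 198.7 in B73_R and B73_S against 8.33 and 7.56. The third lay on the minus strand of chromosome 7, at 146534887 to 146534900, with 70.4 and 67.5 against 1.54 and 2.59. In the order named, the Mo17_R and Mo17_S values at these loci rested on 40 and 6, 29 and 16, and 9 and 12 dominant-site tags.

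On the Mo17 side the leading locus lay on the plus strand of chromosome 1, at 12513728 to 12513777. Its signal was 27.6 in B73_R and 7.23 in B73_S against 527.3 in Mo17_R and 90.6 in Mo17_S. The dominant site was 12513739 in both Mo17-named sets, 12513732 in B73_R and 12513734 in B73_S. The plus strand of chromosome 6, at 133537397 to 133537489, gave 0.550 and 9.03 against 14.6 and 99.2, and the plus strand of chromosome 5, at 2176108 to 2176201, gave 10.6 and 3.46 against 112.8 and 69.2. At these last 2 loci all 4 sets shared the dominant site. The B73_R and B73_S values rested on few tags at some of the Mo17-side loci. In the order named, they had 104 and 8, 2 and 20, and 35 and 10 dominant-site tags.

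Most sharp loci were much narrower than the limit. The median width was 3 bp in every set. In 284 loci (11.4%) the width was 1 bp in all 4 sets, in 1004 (40.3%) the widest of the 4 was at most 3 bp, and in 1635 (65.7%) at most 5 bp. The same width was found in all 4 sets at 740 loci. Clusters of 1 position in all 4 sets made up 145 loci. Loci whose widest cluster was 9 to 10 bp, just inside the limit, numbered 260, and their median signals were 12.3, 15.1, 18.4 and 17.2 in B73_R, B73_S, Mo17_R and Mo17_S. Just outside, with a widest cluster of 11 to 12 bp, were 182 loci under the same rule on moved sites, with 10.4, 13.1, 23.4 and 17.5. Dominant sites were shared by all 4 sets in 40.4% of the former and 39.6% of the latter.

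The dominant site took a median of 68.7% of the cluster's signal in B73_R, 70.3% in B73_S, 72.7% in Mo17_R and 69.1% in Mo17_S. Over all 9804 loci the medians were 57.5%, 52.4%, 54.7% and 50.6%, a difference that the width rule builds in. A share of at least 90% was found at 24.1% of sharp loci in B73_R, 24.8% in B73_S, 26.7% in Mo17_R and 21.7% in Mo17_S, and in all 4 sets at 257 loci (10.3%). A share below 50% in all 4 sets was found at 111 loci. The share ranked loci alike in the sets other than B73_R, with Spearman's rho over the 2490 loci of 0.755 between B73_S and Mo17_R, 0.752 between B73_S and Mo17_S and 0.855 between Mo17_R and Mo17_S. With B73_R it was 0.487, 0.479 and 0.481 for B73_S, Mo17_R and Mo17_S. Signal ranked them by tissue instead, with 0.790 between the R sets, 0.838 between the S sets, 0.501 within B73 and 0.539 within the Mo17-named sets. These are correlations across loci within the same sets, and loci are not replicates.

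Whether transcription started at the same base was then described. At 1371 of the 2490 sharp loci (55.1%, 95% Wilson interval 53.1 to 57.0) all 4 sets had the same dominant site, and over all 9804 loci the share was 34.4%. The rule used the dominant sites and a width of at most 10 bp leaves little room to differ, so nothing is read from this gap. Without B73_R, the other 3 sets shared the site at 1926 sharp loci (77.3%, 75.7 to 79.0), beside 54.3% of all loci. Of the sharp loci with more than 1 site, 493 had sites 1 bp apart, 483 had them 2 to 5 bp apart, 136 had 6 to 10 bp and 7 had more, up to 18 bp.

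Shared sites were more frequent at loci with more tags. Where every set had 20 or more tags at its dominant site, 68.7% of 1361 sharp loci had 1 site in all 4 sets (66.2 to 71.1). With at least 100 it was 76.7% of 390 (72.2 to 80.6), and with at least 500 it was 90.3% of 72 (81.3 to 95.2). In the 3 sets other than B73_R these shares were 88.2%, 90.8% and 98.6%. Over all loci at the same minimums they were 53.1%, 68.6% and 87.8% in 4 sets, and 72.4%, 84.6% and 96.7% in those 3. At 500 tags, 72 of the 90 loci were themselves sharp loci. The rule used the dominant sites, so these shares are given as a description only. At 208 sharp loci at least 1 set had fewer than 5 tags at its dominant site, where a few tags decide which base leads.

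**Figure D4:**
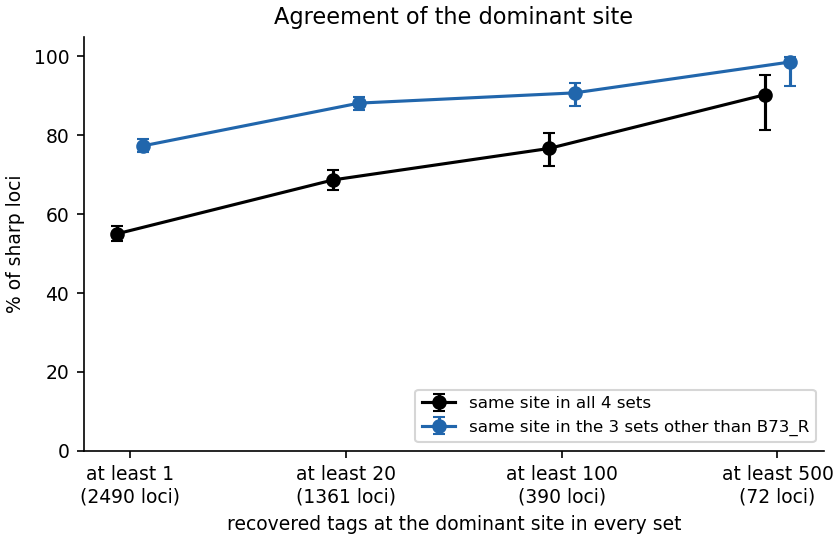
Percent of sharp loci whose dominant site was at the same base, against the minimum of recovered tags in every set, with 95% Wilson intervals. The black points (all 4 sets) go from 55.1% to 90.3% and the blue points (3 sets other than B73_R) from 77.3% to 98.6%, and each step holds part of the loci of the step before.

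The widest separations among the 390 loci with at least 100 tags in every set were small. The widest was 12 bp, on the minus strand of chromosome 1 at 197691427 to 197691450, where both B73 sets had 197691448, Mo17_R had 197691443 and Mo17_S 197691436. Next was 9 bp on the minus strand of chromosome 7, at 154225537 to 154225582. There both Mo17-named sets had 154225576, with 1649 tags in Mo17_R and 759 in Mo17_S, while B73_R had 154225570 (491 tags) and B73_S 154225567 (111 tags). On the minus strand of chromosome 4, at 37971167 to 37971181, both Mo17-named sets had 37971177, B73_R had 37971169 and B73_S 37971171. In the last 2 cases the sets divided by line name and not by tissue, although the B73 sites were not identical. The rule had left out loci with a clean division of either kind, so nothing is read from these cases. On the plus strand of chromosome 9, at 22112370 to 22112430, the 4 sets had 4 sites within 8 bp. On the minus strand of chromosome 8, at 14544763 to 14544787, they lay within 7 bp, at 14544778 in B73_R, 14544785 in B73_S and Mo17_R and 14544782 in Mo17_S.

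When 1 set differed from the others, it was mostly B73_R. B73_R alone differed at 555 sharp loci, B73_S alone at 98, Mo17_R alone at 95 and Mo17_S alone at 83. Of the sharp loci where the other 3 sets shared a site, these were 28.8%, 6.67%, 6.48% and 5.71%. Over all such loci the shares were higher, at 36.6%, 12.6%, 11.3% and 8.73%. Where the other 3 sets shared a site, the B73_R site lay exactly 1 bp downstream at 359 of 1926 sharp loci (18.6%, 95% Wilson interval 17.0 to 20.4), beside 17.4% of all such loci. It lay 1 bp upstream at 22. The same count for the other sets was 11 of 1469 for B73_S (0.749%, all loci 0.440%), 16 of 1466 for Mo17_R (1.09%, all loci 0.473%) and 6 of 1454 for Mo17_S (0.413%, all loci 0.216%). The shift was not a property of sharp loci, since it was found at 13.9% of such loci broad in all 4 sets.

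The 359 loci lay on all 10 chromosomes, with 15.2% to 24.3% of such loci per chromosome, and on both strands, with 177 on plus and 182 on minus. From 5 tags upward, the shift was less frequent with more tags. It was found at 29.2% of 439 loci with 5 to below 20 B73_R tags, 18.5% of 874 with 20 to below 100, at 57 of 474 with 100 to below 1000 and at 8 of 73 with at least 1000. Below 5 tags it was found at 4 of 66. The shared site was itself inside the B73_R cluster at 353 of the 359 loci. In 138 of them the B73_R cluster was made of those 2 bases alone, and the shared site then held a median of 38.9% of the tags (25th to 75th percentile 31.2 to 43.5). These loci were picked because the other base led in B73_R, so the shared site could not hold the larger part. The dominant site of the 359 loci took a median of 57.8% of the signal in B73_R, against 80.3%, 82.5% and 79.6% in B73_S, Mo17_R and Mo17_S. At the loci where all 4 sets coincided, the B73_R median was 83.5%. Both kinds of loci were picked by which base led in B73_R, so these shares are a description only.

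A strong example lay on the plus strand of chromosome 1, at 222643879 to 222644025. The dominant site was 222643884 in B73_R, with 4751 tags and 56.2% of the signal, and 222643883 in B73_S, Mo17_R and Mo17_S, with 4937, 31085 and 9596 tags and 81.4%, 92.8% and 85.3%. On the plus strand of chromosome 8, at 90247337 to 90247519, B73_R had 90247423 with 44.4% of the signal and the others 90247422 with 69.6% to 79.9%. Of the 359 loci, 26 (7.24%) were past 4-fold with B73 root higher and 29 (8.08%) with B73 shoot higher, beside 3.90% and 14.6% of all loci and 8.59% and 12.2% of sharp loci. Per the labels' protocols, amplification took 16 PCR cycles in B73 root and 14 in the other groups, so the tissue and line and the cycles cannot be told apart here.

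**Figure D5:**
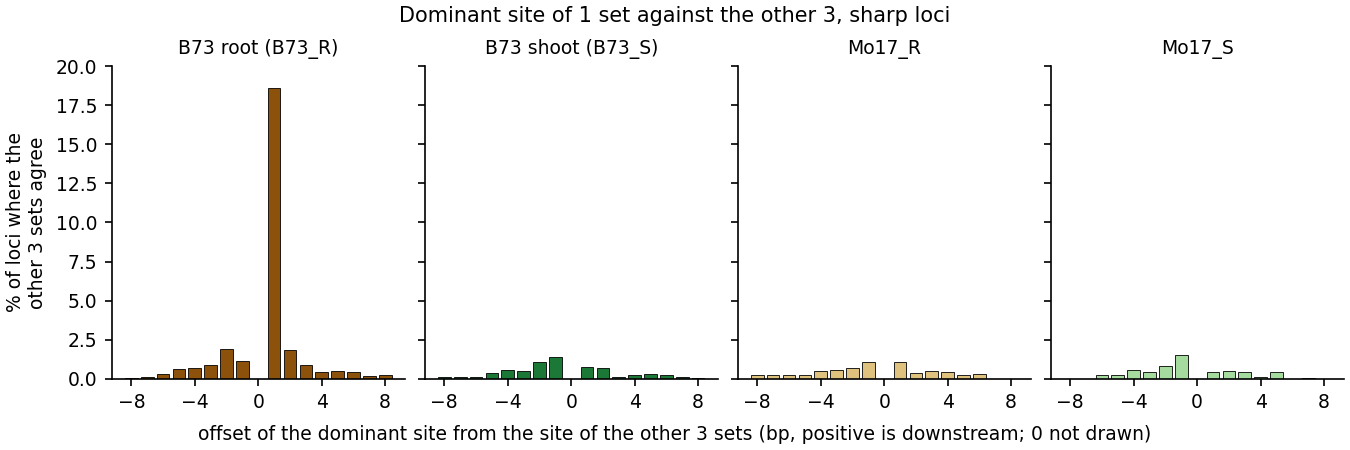
Offset in bp of the dominant site of 1 set from the site that the other 3 sets share, as percent of the sharp loci where those 3 coincide, positive downstream, with 0 not drawn. In B73_R the bar at 1 bp downstream reaches 18.6%, and no bar of the other sets exceeds 1.51%.

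Sharp loci lay on all chromosomes, from 173 on chromosome 9 to 394 on chromosome 1, and made up 22.7% (chromosome 8) to 27.9% (chromosome 6) of the 9804 loci there. The plus strand held 46.5% of sharp loci and 49.8% of all loci. Dense runs, defined as at least 10 clusters of a set with neighbouring dominant sites at most 2000 bp apart, held 331 sharp loci. This was 13.3% of sharp loci (95% Wilson interval up to 14.7), against 401 (4.09%) of all 9804 loci and 12 (0.292%) of broad loci. Sharp loci in runs had median signals of 6.64, 7.89, 11.4 and 10.2 in B73_R, B73_S, Mo17_R and Mo17_S, and those outside 10.3, 12.3, 17.4 and 14.9. In runs 12.7% were past 4-fold with S higher under both names and 2.11% with R higher. Outside runs these were 5.00% and 5.23%, with 108 and 113 loci. Over all loci the shares were 13.2% and 2.24% in runs and 7.18% and 2.12% outside. On tags, sharp loci outside runs divided unevenly, with 75 S-higher (3.47%) and 177 R-higher loci (8.20%), against 4.56% and 4.08% of all loci there. In runs the tags gave 12.1% and 2.42%, against 12.7% and 3.24% of all loci.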

How the data were processed

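CAGE tags of 27 bp were cut with EcoP15I from randomly primed maize cDNA, per the labels' protocols. The submitters' processing notes list Bowtie2 2.0.4. No source used here names the clustering tool, its thresholds, the genome build or the libraries behind a set. The authors deposited a normalized signal per cluster and per dominant site, and an unnamed shape score, which had sharp-locus medians of 0.918, 1.00, 0.941 and 0.935 in B73_R, B73_S, Mo17_R and Mo17_S. Deposited dominant-site signals equalled a constant times tags to an exponent, and inversion gave tags that were whole within 0.01 at 100% of sites. The 2 sets named Mo17 match no label.

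Loci were merged by 1 bp of overlap with Python 3.11.15, numpy 2.4.6, pandas 2.3.3 and scipy 1.17.1, with figures by matplotlib 3.10.9. The steps were tested on simulated data. Named loci are the 10 strongest, the 5 with the largest tissue difference in each direction in B73, the 3 with the largest in both line names, the 3 with the largest line-name difference in both tissues, and the 5 with the widest site separation. The members, lists and rules were chosen with earlier results of these data known. The offset of B73_R, centring and leaving out B73_R were added after seeing the data. Intervals cover counting error only.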

Additional observations from a re-analysis of the deposited data

Results flagged for a closer look

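At 9 sharp loci (0.361%, beside 0.153% of all 9804 loci) the tissue difference was past 4-fold in B73 and past 4-fold the opposite way under the Mo17 name. The difference between the line names was not tested, since there is 1 value per set. At 8 of them B73 shoot was above B73 root while Mo17_R was above Mo17_S, all 9 kept opposite signs on recovered tags but 5 were still past 4-fold in both, 6 had the same dominant site in all 4 sets, and 0 lay in dense runs. Quantile normalization gave 3 such loci in all, and recovered tags gave 11 (0.442%, beside 0.296% of all loci). The largest of the 9 was at the minus-strand locus on chromosome 10 at 147861309 to 147861320. Its signal was 14.6 in B73_R, 146.6 in B73_S, 560.9 in Mo17_R and 70.4 in Mo17_S. The B73 tissue difference (root minus shoot, log2) minus that under the Mo17 name was -6.22 there. It was -4.66 at 142729666 on chromosome 9 (15.5, 100.1, 210.7 and 50.3 in the same order of sets) and -4.83 at 133735790 on chromosome 10 (9.49, 43.7, 317.1 and 46.5). Of the others with B73 shoot higher, it was -5.84 at 147170826, -4.39 at 287256463 and -5.39 at 291976332 on chromosome 1. It was -4.24 at 124960958 on chromosome 7 and -5.04 at 116304241 on chromosome 8. In the order named, the B73_R values at these loci rested on 2, 9, 5, 21 and 6 dominant-site tags. At 147170826 the dominant sites of B73_R, B73_S and the Mo17-named sets differed, within 2 bp. The remaining locus, at 168953158 on chromosome 2, had the B73 root value higher and gave 4.56.

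On tags, the difference between line names was past 4-fold in opposite directions in the R and S sets at 5 sharp loci (0.201%, beside 0.214% of all loci). On signal this was found at 2 sharp loci, also not tested. The R difference minus the S difference was -5.84 at 147170826 on chromosome 1, the locus named above with 2 B73_R tags. It was -4.82 at 1428505 on chromosome 9. The latter had signals of 49.7 in B73_R, 83.1 in B73_S, 350.5 in Mo17_R and 19.7 in Mo17_S.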

How the results depend on the processing

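Leaving out replicates could not be done, since the files hold no value per library. No paired analysis was possible because the columns carry no replicate numbers. Of 135 alternative values 61 stayed within 1.5 times the reported count or within the interval of the reported share, and 74 did not. A width limit of 5 bp left 1635 loci. It gave a shared site at 61.0% and dominant shares of 74.9%, 77.7%, 81.2% and 77.7% in B73_R, B73_S, Mo17_R and Mo17_S. A limit of 20 bp gave 52.2%, and 66.5%, 66.8%, 69.3% and 65.8%. At least 20 tags gave 68.7%, and 76.8%, 78.5%, 82.1% and 77.7%, and at least 100 tags gave 76.7%. Bounds from tags were 70.9%, 67.3% and 65.6% in B73_R, B73_S and Mo17_S. Sites within 1 bp were found at 74.9%, the same site without B73_R at 77.3%, and the same site with the loci left out for moved sites at 52.2%. The 1 bp offset of B73_R was 16.3% with at least 20 tags and 13.0% with at least 100.

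Counts past 4-fold follow in a fixed order: B73_R over B73_S, the reverse, Mo17_R over Mo17_S, the reverse, B73_R over Mo17_R, the reverse, B73_S over Mo17_S, the reverse, then R higher and S higher under both names. The reported counts were 214, 305, 259, 206, 53, 246, 38, 48, 120 and 150. A width limit of 5 bp gave 134, 168, 168, 110, 22, 152, 16, 27, 79 and 77. A fold of 2 gave 516, 667, 661, 416, 171, 853, 168, 407, 327 and 289. A signal of at least 5 in both sets gave 131, 85, 169, 82, 34, 127, 22, 29, 54 and 32. Recovered tags gave 424, 202, 365, 185, 139, 130, 77, 61, 185 and 115. Quantile normalization gave 338, 190, 281, 186, 94, 83, 59, 34, 152 and 122. As shares of sharp loci these were 13.6%, 7.63%, 11.3%, 7.47%, 3.78%, 3.33%, 2.37%, 1.37%, 6.1% and 4.9%. Of all loci the shares were 7.35%, 8.63%, 5.77%, 8.15%, 3.38%, 2.66%, 2.71%, 1.42%, 3% and 5.83%. Centring gave 334, 209, 253, 208, 118, 94, 52, 22, 152 and 131 on signal, and 284, 293, 260, 237, 131, 141, 79, 58, 126 and 146 on tags. A pseudocount of 0.1 moved 1 count past 1.5 times, Mo17_S over B73_S, to 75. For scale changes the cause was not tested. The width limit leaves fewer loci, and the fold and the signal minimum change what is called. At 208 loci a set had fewer than 5 tags at its dominant site.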
